A study of Mus musculus with 11 samples.

Results

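The genes for the proteins of the cytosolic ribosome were examined in 11 livers of male C57BL/6J mice. They were found by their symbols, as every row of the count table whose symbol is Rpl, Rplp, Rps or Rpsp with a number and no other ending than a, l, x, al, l1 or a1, together with *Rpsa*. This gave 83 of the 13669 genes in the table. Of these, 46 encode proteins of the large subunit, 31 encode proteins of the small subunit, and 6 are paralogs, meaning further copies named after another member (*Rpl6l*, *Rpl7l1*, *Rpl32l*, *Rpl36al*, *Rps4l* and *Rps27l*). Symbols, and no cutoff on a measured value, decided which genes belong, but the family was chosen with earlier results of these data known. All 83 passed the filter on low counts.

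The animals were wild type and ate regular chow, and all carried an adeno-associated viral vector (rAAV) meant for expression in hepatocytes. In the 6 AAV-TuD mice the insert was a tough decoy, a hairpin RNA that sequesters the microRNAs *miR-379* and *miR-541*. The study reports that this decoy also lowered the host transcripts *lncMGC* and *Mirg* and other microRNAs of the same cluster. In the 5 AAV-NC mice the insert was a negative control sequence. The study describes the rAAV vectors as carrying a liver-specific promoter, and RNA was taken from whole liver, so cells that the promoter does not serve were sequenced too. The ages of these animals and the time between injection and sampling are not given in the labels. Replicate numbers were 1, 2, 6, 7 and 8 in the control group and 3, 4, 5, 9, 10 and 11 in the decoy group. The labels do not say that each library is a separate animal. The study's legend for these data gives livers of male animals, with n = 6 for the decoy and n = 5 for the control. The p-values measure the spread between these libraries.

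A ribosome is built from a small subunit, which reads the mRNA, and a large subunit, which joins amino acids, and each carries a set of proteins around its ribosomal RNA. Most of these proteins are needed in a single copy per ribosome, and their genes are among the most highly transcribed in a liver. Their mRNAs begin with a C and a run of pyrimidines, the terminal oligopyrimidine (TOP) motif, through which the kinase mTOR governs how strongly they are translated. The study also examined mTOR signaling by immunoblot. It reported more phosphorylation of mTOR and of ribosomal protein S6, the product of *Rps6*, in the livers with the decoy. Its pathway analysis of RNA from decoy and control livers already lists the ribosome at the top of the downregulated pathways. Its liver proteomics, in contrast, puts translation initiation among the top upregulated pathways. The RNA data hold no measure of translation or of protein.

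The start of these genes was looked at first, because the TOP run is what the family is known for. RefSeq lists a start for 61 of the 83 genes on GRCm38.p6. A window of 15 bases before and 15 bases from each listed start was searched for a C followed by further C or T, at least 8 bases in all and on the strand of the gene. Such a run was present for 26 of the 61 genes (42.6%), against 10.8% of the 27025 genes with a listed start and 11.6% of 69 genes for mitochondrial ribosomal proteins. It was present for 16 of 34 large subunit genes, 8 of 23 small subunit genes and 2 of 4 paralogs. A listed start can lie some bases from the true one, so the absence of a run says only that these letters are not in this window. The windows of the 9 genes that the naming rule picked and that held a run are shown from 5′ to 3′, with the run in capitals.
Rps27 (chr3:90213634-90213663, minus strand): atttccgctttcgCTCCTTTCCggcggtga
Rps6 (chr4:86857353-86857382, minus strand): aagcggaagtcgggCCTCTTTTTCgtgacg
Rpl14 (chr9:120571502-120571531, plus strand): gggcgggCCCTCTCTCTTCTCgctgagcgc
Rpl27a (chr7:109519180-109519209, plus strand): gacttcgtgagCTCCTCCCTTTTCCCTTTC
Rps27l (chr9:66946071-66946100, plus strand): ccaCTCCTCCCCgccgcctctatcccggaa
Rplp2 (chr7:141447636-141447665, plus strand): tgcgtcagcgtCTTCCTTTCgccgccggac
Rps9 (chr7:3704026-3704055, plus strand): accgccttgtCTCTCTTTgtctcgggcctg
Rpl13a (chr7:45128731-45128760, minus strand): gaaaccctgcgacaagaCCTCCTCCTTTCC
Rpl32l (chr10:20208424-20208453, plus strand): aaataaaatgaccagCTTCTTCCTTggtgc
The core CCGGAAG bound by the factor GABP, searched on both strands of the 300 bases from 250 before to 50 after each listed start, was present for 25 of the 61 genes (41%) and for 9.93% of all genes. It was present for 37.7% of the mitochondrial ribosomal protein genes. The core AAGATGGC bound by YY1, searched in the same way, can share the letters AAG with a GABP core. It was present for 6 of the 61 genes (9.84%), against 3.19% of all genes and 17.4% of the mitochondrial list. Members that were lower with the decoy and members that did not pass the test held the TOP run in 9 of 27 and 17 of 34 cases.

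The members were abundant in all 11 livers. On the CPM scale, in which read counts are divided by library sizes scaled with the TMM factors of edgeR, the median level over the 83 genes was 206 CPM. Since the kit sequences the end of each transcript, CPM values of different genes can be read without a correction for length, although the fit of each transcript end to the counted exons may differ. *Rplp1*, which encodes a protein of the stalk that calls elongation factors to the large subunit, was the highest at 658 CPM, followed by *Rpl27a* at 565 CPM and *Rpl41* at 519 CPM. The order of the levels was nearly the same in both groups, with a Spearman correlation of 0.989 over the 83 group means, which is a description of genes measured in the same libraries. The largest change of rank was that of *Rps27*, from 50 in the control group to 66 in the decoy group.

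At the lower end stood *Rpl32l* (3.74 CPM), *Rpl13a* (15.1 CPM) and *Rps4l* (15.8 CPM), and the next genes that are not paralogs were *Rpl32* and then *Rpl28*, *Rpl35* and *Rps25* at 29.9, 34.7 and 38.8 CPM. *Rpl13a*, *Rpl32*, *Rpl28*, *Rpl35* and *Rps25* encode constituents of the ribosome like those above 100 CPM. These 5 genes also varied more between livers relative to their level. In the control group *Rpl35* had 39.4 ± 5.83 CPM (SD, n = 5), *Rpl32* 27.4 ± 5.86 CPM and *Rpl13a* 15.8 ± 4.39 CPM. The SD of the 5 was 14.8% to 27.8% of the mean, that of *Rpl32l* and *Rps4l* 19.8% and 21.4%, and the median over the members 6.26%. No difference between the groups passed the test for any of the 5.

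Reads shared with copies of these genes limit what a single value means. Over the last 200 bases of the transcript, 50 of the 83 members matched at least 1 other annotated gene at 97% identity or more over 75 bases or more, and 7 matched more than 10. The table holds 158 rows for processed pseudogenes named after 52 of the members, with 1044895 reads against 1994014 reads on the members themselves. How reads that fit a gene and its copy were counted is not given in the sources used here. Genes described here with such near-identical genes include *Rpl29* (13), *Rps6* (9), *Rpl26* (6), *Rpl36* (6), *Rpl7l1* (4), *Rps15* (3), *Rps19* (3), *Rpl6l* (3), *Rpl35* (3) and *Rps27* (2), and *Rpl32*, *Rpl32l*, *Rpl36al*, *Rplp1*, *Rpl41*, *Rps4l* and *Rps9* with 1 each.

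Relative to all reads, the family did not differ between the groups beyond the spread of the livers. The 83 genes took 1.31% to 2.08% of the reads in the control livers (1.83% ± 0.310, SD, n = 5) and 1.53% to 2.08% in the decoy livers (1.84% ± 0.230, n = 6). The 3 livers with the lowest shares, control liver 7 and decoy livers 3 and 5, were those in which the genes for major urinary proteins (*Mup*) took 28.4% to 38.6% of all reads, against 8.09% to 18.7% in the other 8. With the *Mup* reads left out of the total, the share of the family was 2.31% ± 0.167 in the control group and 2.22% ± 0.0530 in the decoy group, and the groups still overlapped. Each library held 156219 to 213771 reads on the family. On the TMM scale, which matches the bulk of genes between livers rather than the totals, the summed level was 18822 to 20874 CPM in the control livers and 16148 to 17631 CPM in the decoy livers, and no decoy liver reached a control liver. A statement that these genes were lower therefore means lower relative to the bulk of other genes in the same livers.

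**Figure D1:**
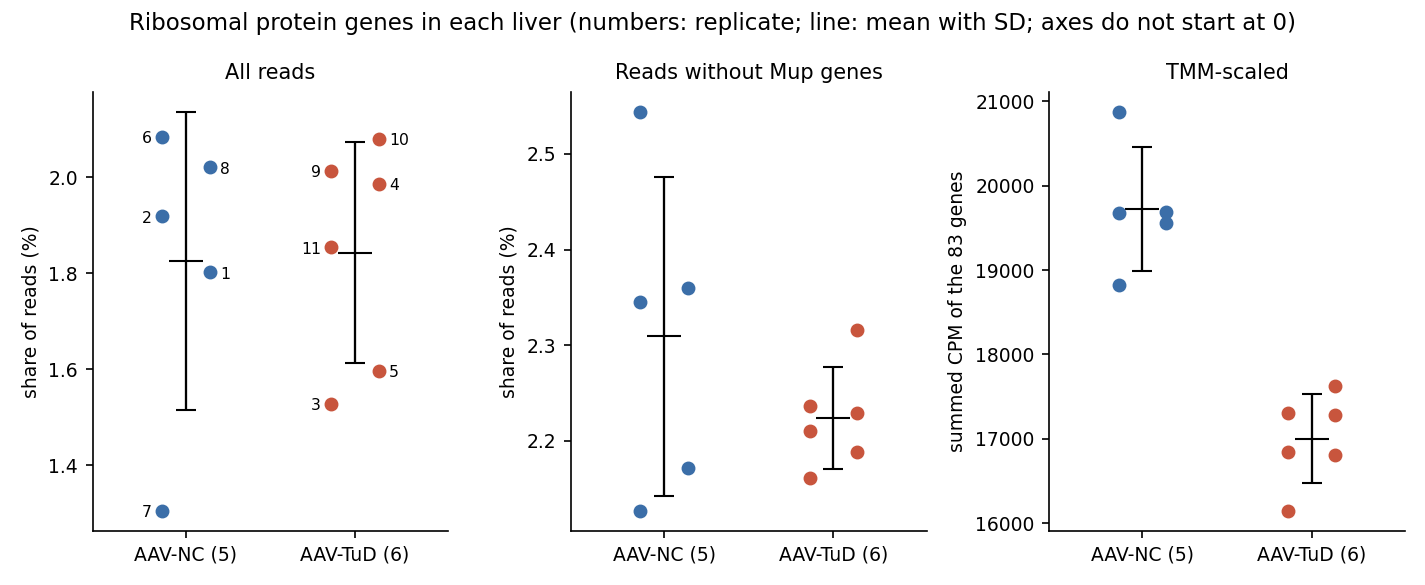
Share of reads on the 83 ribosomal protein genes in percent of all reads (left) and of reads without Mup genes (middle), and their summed TMM-scaled CPM (right), for 5 AAV-NC and 6 AAV-TuD livers, with group means and SD. The groups overlap in both shares, while on the TMM scale the AAV-NC livers lie between 18822 and 20874 CPM and all AAV-TuD livers below them.

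With that scale, ribosomal protein genes were lower in the decoy livers across both subunits. Of the 83 members, 38 were lower and 0 were higher with AAV-TuD at an adjusted p under 0.05 (quasi-likelihood test of edgeR, Benjamini-Hochberg adjusted over all 13334 genes tested). Among all genes tested 4.33% were lower and 7.24% were higher, and 45.8% of the members were lower. The changes were small. Those of the 38 lower genes ran from a decrease of 12.7% to a decrease of 23.3%, and the median log2 fold change was -0.21 over the members and -0.002 over all tested genes. A negative log2 fold change was found for 80 of the 83. Without adjustment, 64 members were lower and 0 were higher at p under 0.05, a threshold for which the share of all genes was not counted. DESeq2 called 54 lower and limma-voom 43, and each called 0 higher. Over all tested genes DESeq2 called 5.63% lower and limma-voom 5.17%. When libraries were scaled by their totals only, without TMM factors, the median of all genes moved to 0.23, that of the members to 0.02, and 0 members were lower. In that setting 95.1% of the differentially expressed genes were higher, against 62.6% with TMM.

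In every decoy liver most members lay below the control mean. The number of members under the control mean was 79, 81, 76, 78, 79 and 82 of 83 in decoy livers 3, 4, 5, 9, 10 and 11. In control livers 1, 2, 6, 7 and 8 the number was 64, 37, 19, 50 and 45. Below every control liver were 62, 69, 52, 59, 67 and 70 members in the same decoy livers. In control liver 1, 38 members were below all other controls. Decoy liver 4 was lowest, with a median log2 difference of -0.30 from the control mean, and decoy liver 5 was highest with -0.14. Among the control livers, number 6 stood highest: 44 of its 83 values were above those of all other controls. For 41 members every decoy liver was below every control liver, while this held for 3.28% of all genes tested. For 0 members, and 4.11% of all genes, every decoy liver was above every control liver. Of these 41 members, 32 are among those lower by the test.

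**Figure D2:**
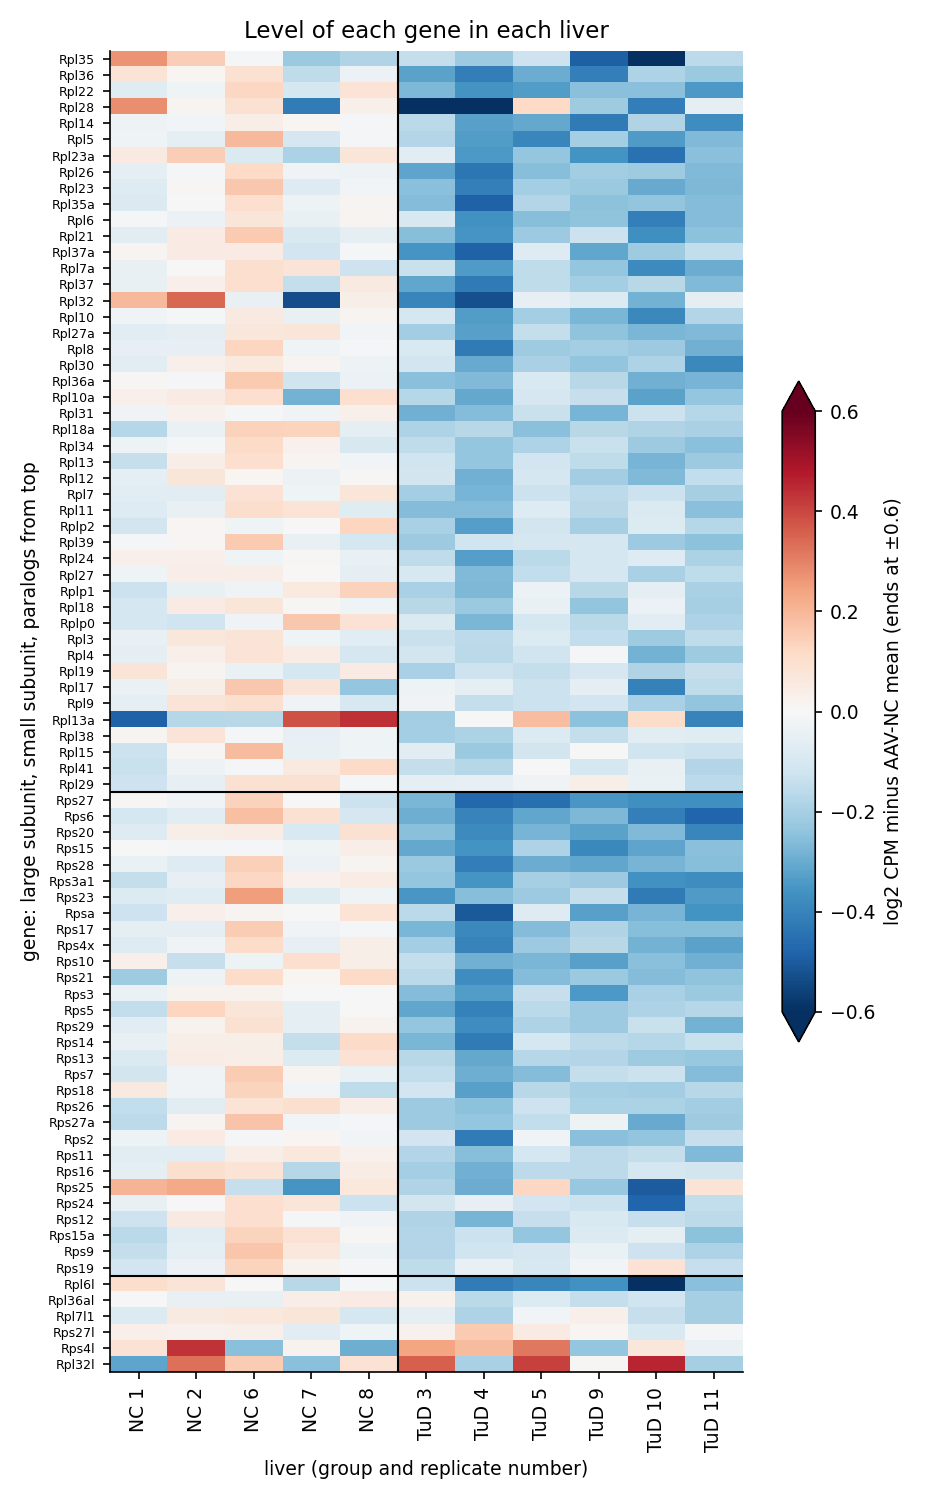
Log2 CPM of each gene but 1 of the 83 (rows) in each liver (columns) minus the mean of the 5 AAV-NC livers, with blue for lower and red for higher values. The AAV-TuD columns are blue in nearly all rows of both subunits, and the rows of the low-level genes Rpl35, Rpl28, Rpl32, Rpl13a, Rps25, Rps4l and Rpl32l vary most between the control livers.

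The counts depended on single livers more than the medians did. With each liver left out in turn, 19 to 34 members were lower, and the fewest came without decoy liver 4. The calls over all tested genes moved too. Without decoy liver 4, 2.58% of them were lower, the smallest share, and without decoy liver 3, 5.43%, the largest, against 4.33% with all livers. The number was 23 without control liver 2 and 21 without control liver 6. It was 22, 24 and 23 without decoy livers 9, 10 and 11. The median over the members stayed between -0.23 and -0.19. With the 3 livers rich in *Mup* reads left out together, a choice made after the data were seen, 31 members were lower and the median was -0.25. In that setting 4.15% of all tested genes were lower. When the members were summed with their pseudogene rows, 35 were lower.

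The family is abundant, and the fold changes of all genes fell with their level. Among the 10% of genes with the highest mean level, which hold 72 of the 83 members, the median log2 fold change was -0.12 for the 1262 genes that are not members and -0.21 for the members. There 17% of the other genes and 36 of the 72 members were lower. The lowess trend of log2 fold change with level was at -0.13 at the median member. With this trend removed from all genes, the median of the members was -0.08 and 2 of the 83, *Rps27* and *Rpl6l*, were lower. In that setting 2.28% of all tested genes were lower, a share close to that of the members.

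**Figure D3:**
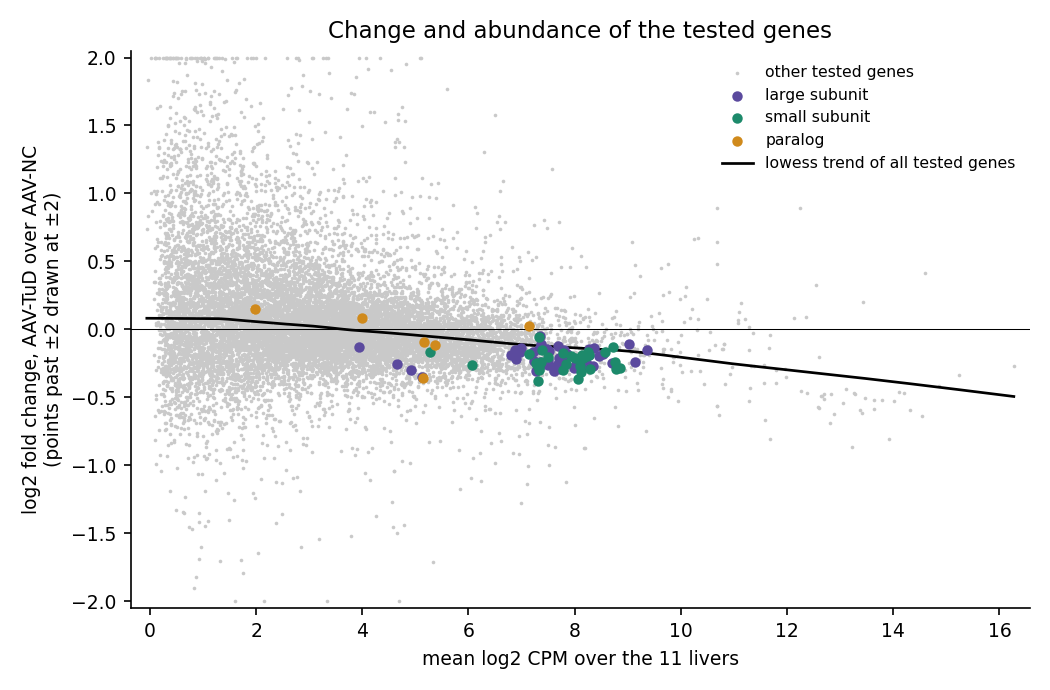
Log2 fold change of each tested gene against its mean log2 CPM over the 11 livers, with large subunit, small subunit and paralog genes in colour and the lowess trend of all tested genes as a line. Most members lie under the trend, which itself falls with level and was at -0.13 at the median member.

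In the large subunit 20 of 46 genes were lower, and all 46 log2 fold changes were negative, between -0.36 and -0.05 with a median of -0.20. The count fell to 7 without decoy liver 4 and to 9 without decoy liver 9 or control liver 2 or 6. It fell to 11 without decoy liver 10 or 11, and to 13 without control liver 8. With any 1 of these livers left out, 2.58% to 3.37% of all tested genes were lower. Among the 20 genes without a near-identical gene, 10 were lower and the median was -0.23. *Rpl22*, whose protein lies at the surface of the large subunit and also binds other RNAs, had 163, 169, 187, 159 and 182 CPM in control livers 1, 2, 6, 7 and 8, and 134 to 144 CPM with a median of 139 CPM in the decoy livers. All 6 decoy values were below all 5 control values (log2 fold change -0.30, SE 0.06, adjusted p = 0.0071). *Rpl14*, another protein of the large subunit, had 230, 232, 242, 237 and 233 CPM in the same control livers and 175 to 210 CPM in the decoy livers, with a median of 189 CPM. Its control values lay close together and again above every decoy value (-0.29, SE 0.07, adjusted p = 0.0097).

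*Rpl5*, which carries the small ribosomal RNA of the large subunit into the assembling particle together with *Rpl11* and which holds back the p53 inhibitor MDM2 when assembly fails, had 262 to 322 CPM in the control livers and 214 to 248 CPM in the decoy livers. The groups did not overlap (log2 fold change -0.29, adjusted p = 0.0162). Its partner *Rpl11* had a log2 fold change of -0.18 that did not pass the test (adjusted p = 0.0913). Its groups did not overlap either, though narrowly, with 232.77 CPM in the lowest control and 232.72 CPM in the highest decoy liver. *Rpl26*, *Rpl23* and *Rpl36* were lower by 17.8%, 17.5% and 19.3%, each without overlap of the groups. RPL26 sits near the exit of the tunnel through which the new protein leaves. *Rpl27a*, the second most abundant member, had 588 to 649 CPM in the control livers and 492 to 558 CPM in the decoy livers. It was lower (log2 fold change -0.24, adjusted p = 0.0297), and this call was lost when control liver 6 or 7 or decoy liver 4, 9, 10 or 11 was left out, with adjusted p values up to 0.0705.

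The stalk genes were not among the lower ones. *Rplp1* had 635, 674, 684, 724 and 764 CPM in control livers 1, 2, 6, 7 and 8 and 577 to 679 CPM in the decoy livers, so the groups overlapped (log2 fold change -0.15, SE 0.08, adjusted p = 0.22). *Rplp2* had log2 fold change -0.18 and *Rplp0*, which anchors the stalk, -0.15, with adjusted p values of 0.104 and 0.192. The large subunit genes with fold changes nearest to 0 were *Rpl29*, at 165 ± 10.7 CPM (SD, n = 5) and 160 ± 6.92 CPM (n = 6), and *Rpl41*, at 540 ± 35.0 CPM and 502 ± 25.4 CPM. For both the groups overlapped, and the log2 fold changes of -0.05 and -0.11 did not pass the test (adjusted p = 0.694 and 0.367).

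In the small subunit 17 of 31 genes were lower, and all 31 log2 fold changes were negative, between -0.38 and -0.06 with a median of -0.24. The count fell to 11 without decoy liver 4 or 11 or control liver 6, and also without the 3 livers rich in *Mup* reads. In these settings 2.58% to 4.15% of all tested genes were lower. Among the 12 genes without a near-identical gene, 7 were lower and the median was -0.25. *Rps27* had the smallest p of the family. Its level was 182, 179, 199, 181 and 166 CPM in control livers 1, 2, 6, 7 and 8, and 131 to 150 CPM with a median of 140 CPM in the decoy livers. No decoy liver reached a control liver (log2 fold change -0.38, SE 0.07, adjusted p = 0.00239). The gene lies at chr3:90212522-90213651 on the minus strand (GRCm38, GENCODE M21).

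*Rps6*, whose protein is the classic substrate of the S6 kinases downstream of mTOR, had 282, 290, 343, 323 and 282 CPM in control livers 1, 2, 6, 7 and 8. In the decoy livers it had 218 to 251 CPM with a median of 237 CPM. All decoy values were again below all control values, a decrease of 22.3% (log2 fold change -0.36, SE 0.07, adjusted p = 0.00544). *Rps6* is at chr4:86854660-86857412 on the minus strand, and 9 other annotated genes are near-identical over its last 200 bases.

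*Rps20*, a protein of the head of the small subunit with no near-identical gene, had 292 to 332 CPM in the control livers and 237 to 261 CPM in the decoy livers (log2 fold change -0.32, adjusted p = 0.00546). *Rps15* had the tightest control values of the named genes, 175 to 183 CPM, and 136 to 156 CPM in the decoy livers (-0.30, adjusted p = 0.00526). *Rps28*, with no near-identical gene either, was lower by 18.6%, and the groups did not overlap. *Rpsa*, which encodes a protein at the back of the small subunit that also serves as a laminin receptor, had 162, 180, 179, 176 and 187 CPM in control livers 1, 2, 6, 7 and 8 and 125 to 168 CPM in the decoy livers. Decoy liver 5 was above the lowest control. It was lower by the test (log2 fold change -0.28, adjusted p = 0.0296), but not without control liver 2, 6, 7 or 8 or decoy liver 4, 9, 10 or 11, with adjusted p values up to 0.0691. *Rps19*, mutated in the inherited anemia of Diamond and Blackfan, and *Rps9* had the fold changes nearest to 0 in the subunit. *Rps19* had 165 ± 10.5 CPM (SD, n = 5) and 158 ± 9.94 CPM (n = 6), and *Rps9* had 399 to 494 CPM in the control livers and 388 to 428 CPM in the decoy livers. Neither passed the test (adjusted p = 0.628 and 0.273).

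**Figure D4:**
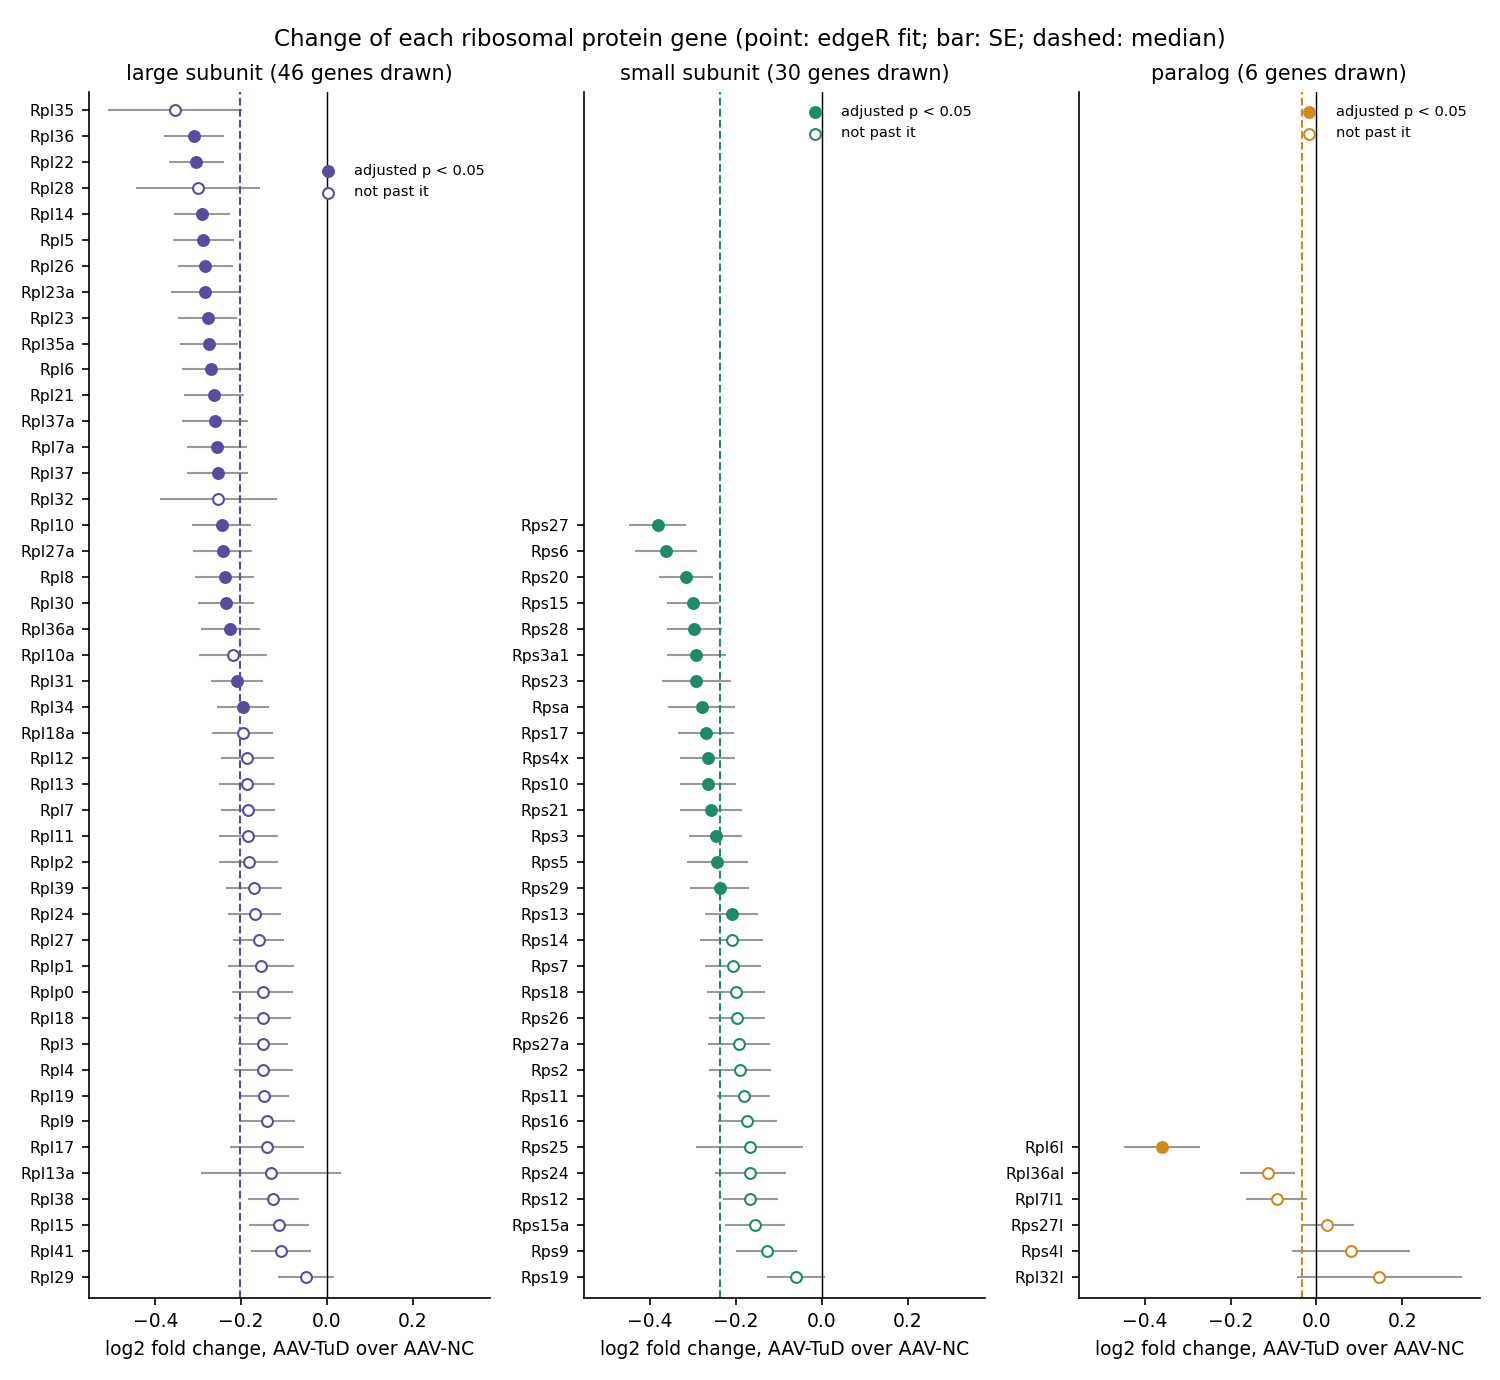
Log2 fold change of each gene (AAV-TuD over AAV-NC) with its SE from the edgeR fit, by class, where filled points passed an adjusted p of 0.05 and dashed lines are the medians of all genes of a class, of which 1 small subunit gene is not drawn. All large and small subunit genes drawn lie left of 0, with medians of -0.20 and -0.24, while the 6 paralogs spread from -0.36 to 0.15.

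The balance between the subunits can be read without any scaling between livers, since it is a difference within each library. The mean log2 CPM of the large subunit genes minus that of the small subunit genes was -0.30 to -0.25 in the control livers (mean -0.28, SD 0.02) and -0.27 to -0.24 in the decoy livers (mean -0.25, SD 0.01). The group means differed by 0.02 on the log2 scale, and the groups overlapped. On the TMM scale, and so not free of scaling, the mean log2 CPM of the large subunit genes was 0.21 lower with the decoy. That of the small subunit genes was 0.23 lower.

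Each gene was also set against the mean of all 83 members in its own liver, which again needs no scaling. By this measure 0 of the members had all decoy livers below all control livers, and 1, *Rps27l*, had all decoy livers above. The differences of the group means were between -0.17 for *Rps27* and 0.35 for *Rpl32l*. They were positive for 23 and negative for 23 of the large subunit genes, positive for 13 and negative for 18 of the small subunit genes, and positive for 5 of the 6 paralogs. The measure describes the spread within the family and was given no test.

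The paralogs varied in level and in change. Their median level was 35.4 CPM, against 204 CPM for the large and 244 CPM for the small subunit genes. Their median log2 fold change was -0.03, and 1 of the 6 was lower. Genes outside the family also differed by level. Their median was -0.12 in the 10% with the highest mean level and -0.07 in the 10% below these. The part of level in the contrast between paralogs and subunit genes was not tested. In the annotation, *Rpl6l* and *Rpl32l* are processed pseudogenes and *Rps4l* is a transcribed processed pseudogene, while *Rpl7l1*, *Rpl36al* and *Rps27l* are protein coding. *Rpl6l* was the lower one, with 43.0, 42.2, 40.0, 35.6 and 39.6 CPM in control livers 1, 2, 6, 7 and 8 and 26.0 to 36.5 CPM in the decoy livers. Decoy liver 3 was above the lowest control (log2 fold change -0.36, SE 0.09, adjusted p = 0.0151). Its last bases are near-identical to those of 3 other genes.

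*Rps27l*, at chr9:66946086-66949516 on the plus strand, encodes a close relative of RPS27 that is known as a target of p53, and no other annotated gene matched its last bases. Its level was 143, 142, 143, 133 and 137 CPM in control livers 1, 2, 6, 7 and 8 and 131 to 156 CPM with a median of 141 CPM in the decoy livers. The groups overlapped (log2 fold change 0.02, SE 0.06, adjusted p = 0.853). *Rps4l* had 15.3 ± 3.27 CPM (SD, n = 5) and 16.2 ± 2.21 CPM (n = 6), and *Rpl32l* 3.52 ± 0.699 CPM and 3.92 ± 0.852 CPM, with adjusted p values of 0.767 and 0.688. *Rpl36al* and *Rpl7l1* had log2 fold changes of -0.11 and -0.09 (adjusted p = 0.29 and 0.456).

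The ratio of each paralog to its parent gene is free of the scaling as well, and was tested by exact permutation over all 462 splits of the 11 livers. *Rps27l* had 78.4, 79.5, 71.5, 73.6 and 82.9% of the reads of *Rps27* in control livers 1, 2, 6, 7 and 8. In decoy livers 3, 4, 5, 9, 10 and 11 it had 94.8, 119, 109, 99.1, 93.4 and 98.8%. The pair was thus near parity in the decoy group, and every decoy liver was above every control liver. The difference of the group means was 0.40 on the log2 scale (exact two-sided permutation p = 0.00216, the smallest these splits can give, and 0.013 adjusted over the 6 pairs). It was 0.36 to 0.43 with each liver left out. On the TMM scale, this ratio combines a lower level of *Rps27* with a level of *Rps27l* that did not pass the test. How the difference divides between these genes depends on the scaling.

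For the other 5 pairs the groups overlapped and the adjusted exact permutation p was 0.182 for each. The ratio of *Rps4l* to *Rps4x* was 6.84% to 12.1% in the control livers and 8.38% to 13.3% in the decoy livers, a log2 difference of 0.36. That of *Rpl32l* to *Rpl32* was 9.09% to 15.8% and 11.8% to 22.3%, a log2 difference of 0.38. The log2 differences were 0.11 for *Rpl36al* to *Rpl36a*, 0.09 for *Rpl7l1* to *Rpl7* and -0.09 for *Rpl6l* to *Rpl6*.

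**Figure D5:**
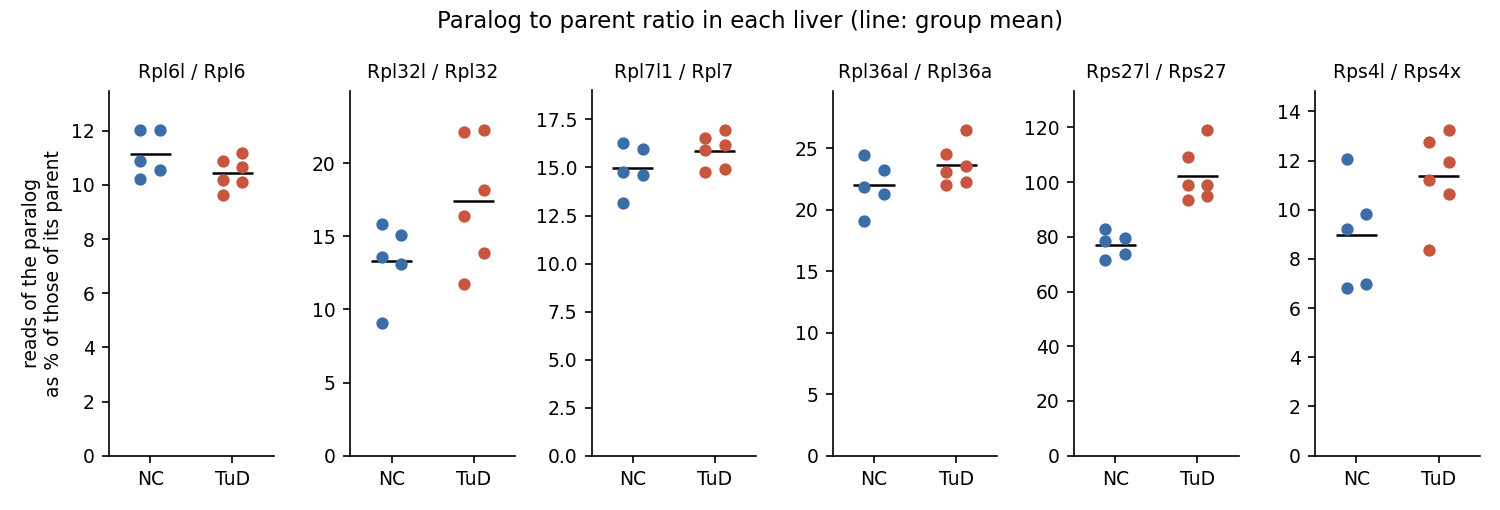
Reads of each paralog in percent of the reads of its parent gene, for each of the 5 AAV-NC (blue) and 6 AAV-TuD (red) livers, with the group mean as a line. Only for Rps27l to Rps27 are all AAV-TuD livers (93.4% to 119%) above all AAV-NC livers (71.5% to 82.9%).

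Other parts of the translation machinery were described by lists. Over those for initiation, elongation, other TOP mRNAs, biogenesis and regulators, 15 of 224 tested genes changed, 5.36% lower and 1.34% higher, beside 4.33% and 7.24% of all genes. With single livers left out the number was 6 without decoy liver 4 or 10 or control liver 8, 8 without control liver 1, 9 without decoy liver 9 or 11, and up to 20 otherwise. Ribosomal proteins tested whose symbols fall outside the naming rule were *Fau*, which encodes RPS30 fused to a ubiquitin-like protein, and *Rack1*, a scaffold on the head of the small subunit. *Fau* had a log2 fold change of -0.15 and *Rack1* of -0.18, with adjusted p values of 0.182 and 0.0733. Of 75 mitochondrial ribosomal protein genes, which serve the separate ribosome of that organelle, 1 changed, and their median log2 fold change was -0.02. That gene was *Mrpl15*, which was lower (-0.25, adjusted p = 0.0302). The study lists its protein, in contrast, among the top upregulated mitochondrial proteins with the decoy. In the RNA data the next genes by p, *Mrpl51* and *Mrpl35*, had log2 fold changes of -0.22 and 0.27. Neither passed (adjusted p = 0.0658 and 0.0859). These genes had a median level of 18.4 CPM, under that of the cytosolic family.

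Of 11 tested genes for elongation and termination factors, 4 changed, all of them lower, with a median log2 fold change of -0.22. *Eef1a1*, which brings aminoacyl-tRNA to the ribosome and is a TOP mRNA, had 662 ± 48.5 CPM (SD, n = 5) and 504 ± 65.9 CPM (n = 6), a log2 fold change of -0.40 (adjusted p = 0.013). *Eef1b2* and *Eef1d*, which recharge that factor with GTP, had -0.25 and -0.28 (adjusted p = 0.047 and 0.0224). *Hbs1l*, which rescues stalled ribosomes, had -0.33 (adjusted p = 0.038). In a list of 24 tested TOP mRNAs outside the family, which holds these *Eef1* genes again and also *Eef1g* (-0.22, adjusted p = 0.102), 4 were lower and the median was -0.16.

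Of 43 initiation factor genes, 1 was lower and 1 was higher, with a median log2 fold change of -0.07. *Eif4a3*, the RNA helicase of the exon junction complex, was higher at 16.4 ± 3.14 CPM (SD, n = 5) and 23.4 ± 1.31 CPM (n = 6), without overlap (log2 fold change 0.50, adjusted p = 0.00855). *Eif5*, which triggers GTP hydrolysis at the start codon, was lower (-0.30, adjusted p = 0.0339), and the scaffold *Eif4g1* had -0.24 and did not pass (adjusted p = 0.0507). Of 139 tested ribosome biogenesis factors, 2 were lower and 2 were higher, with a median of -0.07. The 3 with the smallest p were *Rrp15* (-0.54, adjusted p = 0.0342), the exonuclease *Xrn2* (0.29, adjusted p = 0.0399) and *Naf1* (0.83, adjusted p = 0.0459), which had a mean of 2.42 CPM in the control livers.

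Of 22 tested genes that regulate the translation or transcription of ribosomal protein genes, 4 changed, all of them lower, with a median log2 fold change of 0.02. *Rps6kb1*, the kinase that phosphorylates S6, had 44.6 ± 2.24 CPM (SD, n = 5) and 35.9 ± 3.93 CPM (n = 6), without overlap (-0.31, adjusted p = 0.023). *Eif4ebp2*, a repressor of cap-dependent initiation that mTOR inactivates, had -0.47 (adjusted p = 0.0328). *Pdcd4*, an inhibitor of the helicase eIF4A that S6 kinase marks for degradation, had -0.41 (adjusted p = 0.0168), and *Mxd4*, an antagonist of MYC, had -0.28 (adjusted p = 0.0302).

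Markers of stellate cells, Kupffer cells and cholangiocytes moved with the groups. In bulk tissue, a change in the number of cells of a type and a change in RNA per cell cannot be told apart. Of 9 tested stellate cell markers 7 were higher, and their summed level was 203 to 263 CPM in the control livers and 358 to 490 CPM in the decoy livers. Of 12 Kupffer cell markers 9 were higher (152 to 218 CPM and 177 to 475 CPM), and all 5 tested cholangiocyte markers were higher (41.3 to 65.3 CPM and 70.2 to 114 CPM). Of the 10 sinusoidal endothelial markers 0 were called by edgeR or DESeq2, and 0 had an unadjusted p under 0.05 (264 to 292 CPM and 263 to 284 CPM). Lymphocyte markers summed to 6.92 to 13.3 CPM and 7.61 to 21.1 CPM, with 1 of 2 tested genes higher. Erythroid markers summed to 1915 to 2754 CPM and 2517 to 7003 CPM. Of these 5 genes 0 were called by edgeR or DESeq2, 4 were higher at an unadjusted p under 0.05, and *Alas2* had a log2 fold change of -0.59 (adjusted p = 0.207). The 10 hepatocyte markers, which identify the tissue, summed to 38871 to 44504 CPM and 45318 to 52094 CPM. By edgeR 1 of them, *Hnf4a*, was lower (log2 fold change -0.38, adjusted p = 0.015), while DESeq2 called 2 lower and 1 higher. The higher sum came from *Alb*, with means of 21096 and 28044 CPM (log2 fold change 0.41, adjusted p = 0.0805), while 7 of the 10 had a negative log2 fold change and the median was -0.11. The part of these shifts in the levels of the ribosomal protein genes was not tested.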

How the data were processed

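Libraries were made from total liver RNA with the QuantSeq 3′ mRNA kit. The authors used BBDuk for trimming, STAR (2.5.3a) for alignment to GRCm38 and Rsubread for counting, and deposited filtered raw read counts per gene. DESeq2 1.38.3 is named in the submitters' processing notes. The annotation and the handling of strand and multi-mapping reads are not given in the sources used here. Totals were 8148531 to 12043959 reads per library.

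Of these genes, 13334 exceeded 10 reads in 5 or more livers and were tested in R 4.3.3 with edgeR 4.0.16 (quasi-likelihood, TMM factors, Benjamini-Hochberg adjustment, threshold 0.05). DESeq2 1.42.0, limma 3.58.1, other scalings and filters, and leaving out each liver were alternatives. CPM are counts over TMM-scaled library sizes, and log2 CPM used a prior count of 2. Paralog ratios used a pseudocount of 0.5 and exact two-sided permutation tests. Near-identical genes were found with BLAST 2.17.0 in GENCODE M21, and start windows came from RefSeq. The fitting code was tested on simulated data.

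Named members were the paralogs, *Rps6*, *Rpsa*, the stalk genes, the 6 genes with the smallest p and the 2 with the highest fold change in each subunit, and the 3 members with the highest and the 3 with the lowest level. From the other lists came the genes outside the naming rule, elongation factors and regulators past the threshold, and the 3 genes with the smallest p of the remaining lists. *Rpl11*, *Rpl28*, *Rpl32*, *Rpl35*, *Rps25*, *Eef1g*, *Alas2*, *Alb* and *Hnf4a* were added once values had been seen. A gene that the rule names is not reported here singly, but stays in all counts and medians. The members and lists were chosen with earlier results of these data known.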

Additional observations from a re-analysis of the deposited data

Results flagged for a closer look

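Among 82 groups of values examined, 2 held a liver whose distance from its neighbours exceeded the 95% critical value of Dixon's test, and chance alone gives about 1 in 20. Both were control liver 6. It had 247.9 CPM of *Rpl26*, where the other controls had 219 to 225.8 CPM, and 321.7 CPM of *Rpl5*, where they had 262.1 to 278.4 CPM. Both genes stayed without overlap between the groups in the direction given above, since the value lies away from the decoy livers.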

How the results depend on the processing

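No paired analysis was possible because the groups share no replicate number. DESeq2, limma-voom, DESeq2 size factors, upper-quartile factors, factors without ribosomal protein genes, omission of *Mup* genes and both other filters gave 35 to 54 lower members and 0 higher. In these settings 3.97% to 5.63% of all tested genes were lower. Scaling by totals alone left 0 lower members (0 large, 0 small, 0 paralogs changed), beside 0.532% of all tested genes. It left 5 instead of 15 changed genes in the translation and biogenesis lists. Medians were then 0.023 for all members, 0.029 for the large subunit, -0.011 for the small subunit, 0.20 for paralogs and 0.23 for mitochondrial ribosomal protein genes, beside 0.23 for all genes. With the abundance trend removed, 2 members were lower (0 large, 1 small), beside 2.28% of all tested genes, and 5 list genes changed. The medians were then -0.08, -0.08 for the large and -0.115 for the small subunit, and 75% of all calls were higher. Without the 3 *Mup*-rich livers, 11 small subunit genes were lower.

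Of the named members, these turned from a negative to a positive log2 fold change with totals alone: *Rpl13a* 0.124, *Rpl29* 0.19, *Rpl36al* 0.115, *Rpl41* 0.125, *Rpl7l1* 0.14, *Rplp0* 0.088, *Rplp1* 0.079, *Rplp2* 0.047, *Rps19* 0.18 and *Rps9* 0.11. With the trend removed those that turned were *Rpl29* 0.073, *Rpl41* 0.054, *Rplp1* 0.022, *Rps19* 0.061 and *Rps9* 0.024. None of these passed the edgeR test in either setting or in the reported fit. Of 616 values for 28 named members, 558 kept direction and call, 42 lost the call and 1 gained it.

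Leaving out each liver gave 19 to 34 lower members, 7 to 18 in the large and 11 to 19 in the small subunit. Over all tested genes it gave 2.58% to 5.43% lower. It also gave 6 to 20 changed list genes. The list count was 6 without decoy liver 4 or 10 or control liver 8, 8 without control liver 1, and 9 without decoy liver 9 or 11. Apart from the settings' own construction, the cause of these shifts was not tested. Each library held at least 156219 reads on the family, and *Rpl32l*, with the fewest reads, had 413 over all livers.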
